A study of Mus musculus with 6 samples.

Results

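The genes described here lie on a stretch of mouse chromosome 8, from 20 to 45 Mb in the mm9 assembly, and were chosen by the rule that a named gene had its probe in this stretch, after Star, Kcnu1 and genes whose names begin with Adam, Defa, Defb, Tex, Spata, Rpl, Rps or Psm were left out. The stretch was selected on measured values, since it held runs of genes whose signals differed between arrays of 1 genotype. Of 21249 named genes on the array, 130 were members. A further 29 genes of the stretch were left out by name. After dim probes were set aside, 105 of the 130 members and 16577 of all named genes were tested, and 25 members were not.

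Total RNA of whole testes from male mice aged 6 to 8 weeks was hybridized to 6 one-colour arrays. Of these, 3 came from Prss55-/- mice, in which the gene for a testis serine protease had been disrupted in every cell by homologous recombination, and 3 came from wt mice. Both genotypes were kept on a mixed 129Sv/C57BL/6 background by crossing heterozygotes, and the strain origin of chromosome 8 in each mouse was not given in the sources used here. All 3 Prss55-/- arrays lay on 1 slide and the wt arrays on the other 2, so slide and genotype cannot be told apart. Differences among the Prss55-/- arrays lie within 1 slide. Among the wt arrays, replicates 1 and 2 shared a slide and replicate 3 lay alone on its own, so ranges over the wt arrays also hold a difference of slide.

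Neighbouring genes on a chromosome are inherited together, but they need not share a function, and the members here range from DNA helicases to phosphatases, claudins and enzymes of glutathione metabolism. On this array each gene is read through 1 or more probes of 60 bases that are fixed to the glass. The signal of a probe depends on how much of the matching RNA is present and on how well the probe pairs with it. Because whole testes were used, fewer cells of a type and less RNA per cell cannot be told apart.

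Prss55-/- replicates 2 and 3 gave nearly the same signals as each other across the stretch, and both differed from Prss55-/- replicate 1, which lay among the wt arrays. Of the 105 tested members, 12 had a range of 2-fold or more over the 3 Prss55-/- arrays, and in 11 of them replicate 1 was the array that stood apart. In 6 of these 11 genes replicate 1 was lower than the other 2 Prss55-/- arrays, and in 5 it was higher. Over all tested genes, a range of 2-fold or more over the Prss55-/- arrays was met by 1.90%, and such a range with replicate 1 apart by 1.13%. Between replicates 2 and 3 alone, 0 members and 0.619% of the other tested genes differed by 2-fold. These values chose the stretch, so they are given as a description without a test.

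By a rule that linked such genes no more than 2 Mb apart, 9 members formed 1 run of 5.96 Mb (chr8:32207432-38167017). In order they were Dusp26, Tti2, Fut10, Nrg1, Gsr, Tmem66, Cldn23, 6430573F11Rik and 1700016D18Rik. The run was not unbroken, since 31 tested members lay between its ends and the 9 genes made up 29.0% of them. Gm6213 and Mtus1 lay beyond the run on the distal side and had the same array apart. The remaining gene, Pdgfrl, had replicate 2 apart.

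In the genes of the run that were lower in replicate 1, the wt arrays were low as well, except for wt replicate 3 in Dusp26. Nrg1, which encodes the ErbB ligand neuregulin 1, had log2 signals of 5.08, 7.58 and 7.63 in Prss55-/- replicates 1 to 3 and of 4.83, 4.31 and 5.32 in wt replicates 1 to 3. Replicate 1 was thus 5.65-fold below the nearer of the other 2 Prss55-/- arrays, and only 1 of the 3 wt arrays was well above background. Cldn23, a member of the claudin family of tight junction proteins, had signals of 6.52, 8.53 and 8.52 in the Prss55-/- arrays and of 5.92, 6.17 and 6.83 in the wt arrays. Its replicate 1 value lay inside the wt range, and the other 2 Prss55-/- arrays lay above all wt arrays.

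The gene listed as 6430573F11Rik, which RefSeq names Trmt9b, a relative of tRNA methyltransferases, had log2 signals of 6.81, 8.85 and 8.95 in the Prss55-/- arrays against 7.09, 6.83 and 6.99 in the wt arrays. Tti2, a partner of TELO2 in the assembly of large PI3K-related kinases, had 6.67, 7.74 and 7.89 against 6.74, 6.66 and 6.73. In both genes the gap between replicate 1 and the nearer Prss55-/- array, 4.09-fold and 2.09-fold, was larger than the whole wt range. Dusp26, a dual-specificity phosphatase, had 5.95, 7.49 and 7.73 against 5.64, 6.22 and 7.45. Dusp26 thus varied among the wt arrays too, with wt replicate 3 nearly as high as the 2 high Prss55-/- arrays.

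The other 4 genes of the run were high in replicate 1 and in wt, and low in Prss55-/- replicates 2 and 3. The largest gap among them was that of 1700016D18Rik, a RIKEN transcript with no function stated here, with log2 signals of 13.22, 9.71 and 9.65 in the Prss55-/- arrays and of 13.49, 13.26 and 13.41 in the wt arrays. Replicate 1 was 11.4-fold above the nearer of the other 2. Gsr, glutathione reductase, which keeps glutathione in its reduced form, had 10.99, 9.46 and 9.33 against 11.16, 10.96 and 11.15. Both genes were strongly expressed on every array, so the low values were measured and not set by the background.

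Tmem66, renamed Saraf, which dampens calcium entry once the stores of the endoplasmic reticulum are filled, had 14.13, 12.88 and 12.86 in the Prss55-/- arrays against 14.23, 14.28 and 14.08 in the wt arrays. Fut10, a fucosyltransferase family member, had 8.28, 7.25 and 7.07 against 8.34, 8.51 and 8.33. Replicate 1 stood 2.38-fold and 2.03-fold above the nearer Prss55-/- array in these genes, while it lay inside the wt range for Tmem66 and just below it for Fut10.

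Beyond the run, Gm6213, a predicted gene, had 6.88 in Prss55-/- replicate 1 and 6.89, 6.83 and 7.25 in the wt arrays. In Prss55-/- replicates 2 and 3 it read 2.85 and 2.83 and was not well above background. Replicate 1 was at least 3.20-fold higher than those 2 arrays, counted from the lowest signal well above background on each array. Mtus1, a microtubule-associated tumour suppressor, had 9.93, 10.997 and 11.20 against 10.34, 10.31 and 10.27. Replicate 1 lay inside the wt range in 7 of the 11 genes, and in Fut10, 6430573F11Rik and 1700016D18Rik it lay just below the lowest wt array. In Mtus1 it lay below all wt arrays by more than the whole wt range.

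**Figure D1:**
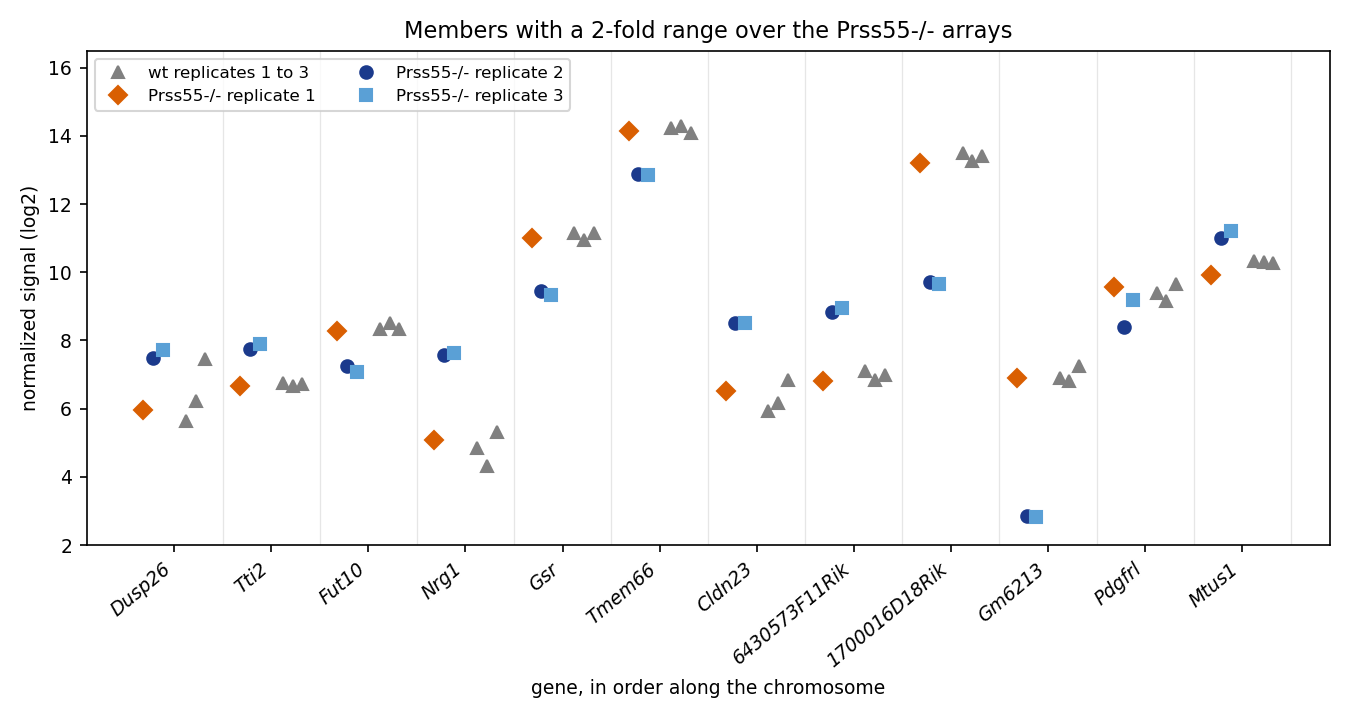
Normalized log2 signal of the 12 members with a range of 2-fold or more over the Prss55-/- arrays, in order along the chromosome; each point is 1 array. In all but Pdgfrl, Prss55-/- replicate 1 (diamonds) sits near the wt arrays (triangles) and away from replicates 2 and 3 (circles and squares), below them in 6 genes and above them in 5.

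For the Prss55-/- arrays the threshold of 2-fold fell only just above the widest ranges outside it. Pdgfrl, a relative of platelet-derived growth factor receptors, and Fut10 were just inside it for the Prss55-/- arrays, with log2 ranges of 1.19 and 1.21. AI316807, renamed Smim19, and Purg, a nucleic acid-binding protein gene next to Wrn, were just outside, with 0.98 and 0.97. Over the wt arrays only Dusp26 and Nrg1 reached 2-fold, with ranges of 1.81 and 1.01, while Cldn23 and the ubiquitin ligase gene Rnf122 were just outside, with 0.92 and 0.58. That was 2 of 105 members, against 1.27% of all tested genes, and it fell to 1 without wt replicate 2 and to 0 without wt replicate 3.

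Smaller ranges were seen in further members, some between the 12 genes and some nearer the start of the stretch, and not all had replicate 1 apart. A range of at least 1.5-fold over the Prss55-/- arrays was seen in 26 members, or 24.8%, and in 5.55% of the other tested genes, and in 23 of the 26, or 88.5%, replicate 1 stood apart. Replicate 1 also stood apart in 582 of the 915 other genes with such a range, or 63.6%. Counted with no minimum size, replicate 1 stood apart in 66 of 105 members, or 62.9%, and in 47.9% of all tested genes. Replicate 1 was thus the Prss55-/- array most often apart over the whole array too, mostly by small gaps.

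The genes with a range of at least 1.5-fold and replicate 1 apart lay mostly in the middle of the stretch. They made up 3 of 26 tested members between 20 and 25 Mb, 2 of 29 between 25 and 30 Mb, 6 of 15 between 30 and 35 Mb, 9 of 17 between 35 and 40 Mb and 3 of 18 between 40 and 45 Mb. On the rest of chromosome 8, 38 of 748 named genes met the same criterion, or 5.08%, among them 5 of 31 between 0 and 5 Mb and 5 of 33 between 45 and 50 Mb, shares no lower than those of the members between 20 and 30 Mb. A range of 2-fold or more over the Prss55-/- arrays was seen in 16 of the 748, or 2.14%.

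**Figure D2:**
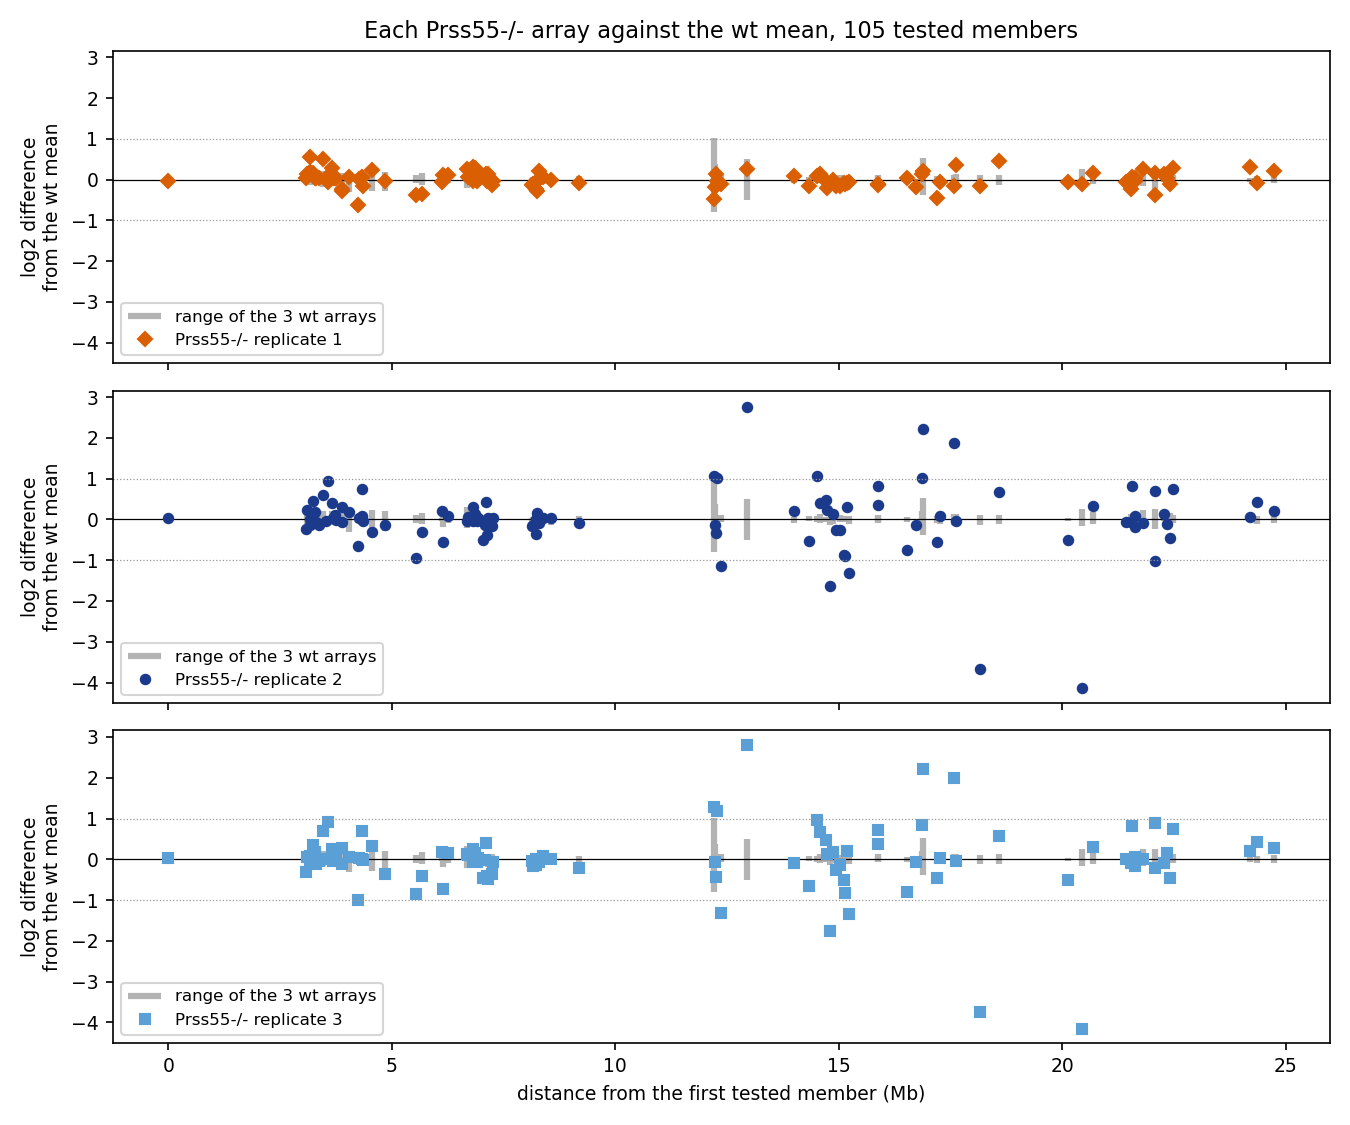
Difference in log2 signal of each Prss55-/- array from the wt mean for the 105 tested members (brightest tested probe of each gene), against the distance in Mb from the first tested member; grey bars span the 3 wt arrays and dotted lines mark 2-fold. Replicate 1 stays within 2-fold of the wt mean throughout, whereas replicates 2 and 3 both leave it at 10 genes, in both directions, and only 1 of them does at 4 others (Ank1, Purg, Gm19410 and Pdgfrl).

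The same contrast was seen when whole arrays were set against each other. Over the 105 members the median absolute log2 difference was 0.06 between Prss55-/- replicates 2 and 3, and 0.21 and 0.19 between replicate 1 and these arrays. Over all other tested genes these medians were 0.06, 0.09 and 0.09. Replicate 1 differed by medians of 0.16, 0.10 and 0.09 from wt replicates 1 to 3 over the members, whereas Prss55-/- replicates 2 and 3 differed from the wt arrays by 0.20 to 0.27. Between replicate 1 and the 3 wt arrays, 0, 0 and 1 members differed by 2-fold or more. Each of these 2 arrays differed by 2-fold or more from each wt array at 9 to 13 members, or 8.57% to 12.4%. Over the other tested genes 1.11% to 1.72% differed by 2-fold or more in the pairs of a Prss55-/- with a wt array, so the 0 to 1 members for replicate 1 were near that share.

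**Figure D3:**
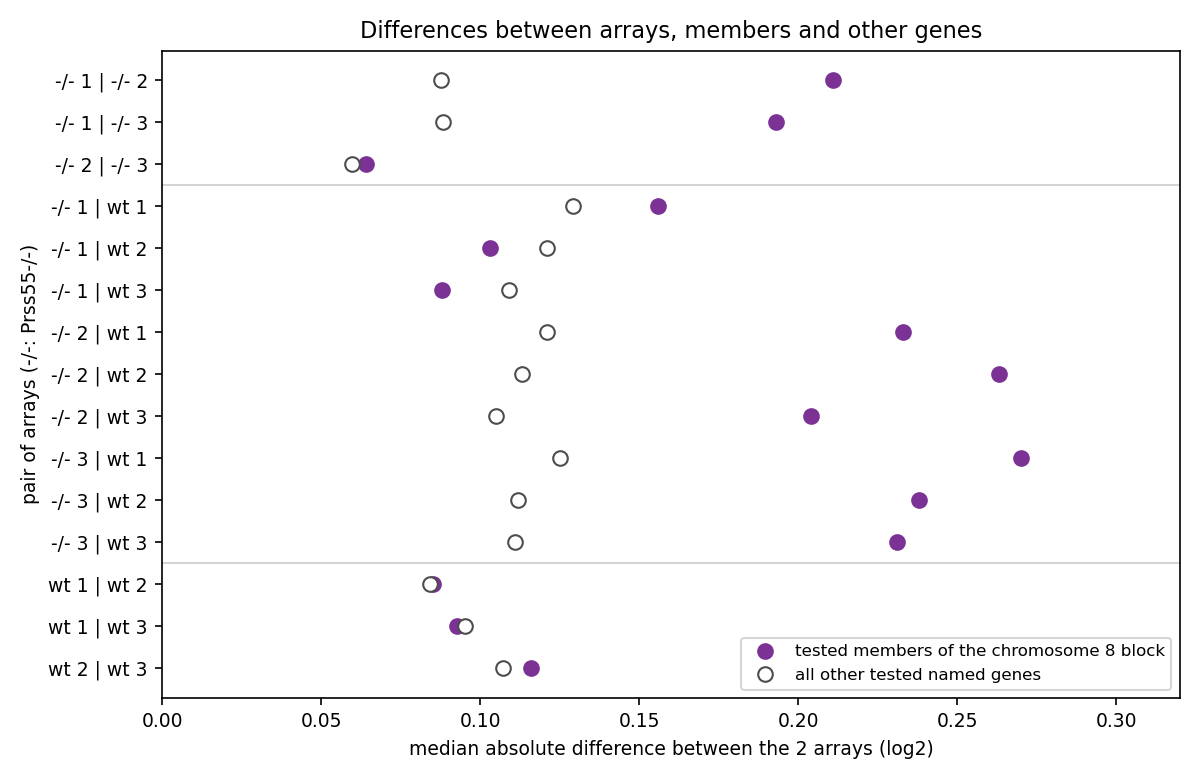
Median absolute log2 difference between each pair of arrays, for the 105 tested members (filled) and for the other 16472 tested named genes (open); horizontal lines separate pairs within Prss55-/-, between genotypes and within wt. Members differ by 0.19 to 0.27 in every pair that sets Prss55-/- replicate 2 or 3 against Prss55-/- replicate 1 or a wt array, and by 0.06 to 0.16 in the rest.

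Sorted into 2 sets at the largest gap among the 6 values, 10 of the 12 variable members had Prss55-/- replicates 2 and 3 on one side and the other 4 arrays on the other, 5 in each direction. Among the 303 other genes of the array with a 2-fold range over the Prss55-/- arrays, 62 had this split, or 20.5%, and in 51 of those 62 the 2 arrays were low. Over all 105 tested members, 38 had the split, or 36.2%, against 6.14% of the other tested genes. Of the 38, replicates 2 and 3 were high in 21 and low in 17.

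Genes read by several probes allowed the pattern to be compared between probes of 1 gene. Of 48 members with more than 1 tested probe, 16 had at least 1 probe with a 1.5-fold range and replicate 1 apart, and 8 had 2 or more such probes. In 7 of the 8 these probes moved the same way. Every tested probe moved in 4 genes, namely 6430573F11Rik, Cnot7, Dusp4 and Tti2. The first 30 bases of both probes of 6430573F11Rik are printed because they are separate sequences that gave like results, with log2 ranges over the Prss55-/- arrays of 2.14 and 2.56 (mm9, plus strand, chr8:37575761-37575820 and chr8:37575415-37575474).
6430573F11Rik brighter probe: cttaagcactttgaccgcatcttcctaatt
6430573F11Rik dimmer probe: gtttctgcattcgactccaacgactccaac

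Cnot7, a catalytic subunit of the CCR4-NOT deadenylase, had 9.04, 9.79 and 9.79 in the Prss55-/- arrays and 8.97, 8.94 and 9.01 in the wt arrays by its brighter probe. Its dimmer probe gave 8.82, 9.73 and 9.71 against 8.68, 8.70 and 8.59. Dusp4, a phosphatase of MAP kinases, had 11.88, 12.81 and 12.72 against 11.98, 11.94 and 12.07 by its brighter probe. For Cnot7 and Dusp4 the high arrays were again Prss55-/- replicates 2 and 3, and they did not overlap the other 4 arrays.

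In other genes the probes differed. Of the 4 probes of Mtus1, 3 had ranges over the Prss55-/- arrays of 0.66 to 1.27 on the log2 scale, and the other had 0.03. The probe with 0.66 had a wider range, 0.71, over the wt arrays, of which only 1 was well above background. Of the 3 probes of Gsr, the ranges were 1.67, 0.84 and 0.29, all with replicate 1 highest. The probes with 0.84 and 0.29 share 39 of their bases without a mismatch.

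In Golga7, Leprotl1, Triml1 and Zfp42 the brightest probe stayed under 2-fold while another probe passed it. Counting any probe thus raised the number of members with a 2-fold range from 12 to 16, against 2.72% of all tested genes. In Leprotl1 the probe past 2-fold had replicate 1 highest of the Prss55-/- arrays, and the brightest probe had it lowest. Triml1 read 13.84, 13.59 and 13.74 in the Prss55-/- arrays by its brightest probe and 5.94, 6.91 and 7.21 by the other. Golga7, a subunit of a palmitoyltransferase, had 12.33, 12.36 and 12.27 in the Prss55-/- arrays against 12.24, 12.35 and 12.23 by its brighter probe. By the other it had 7.66, 9.26 and 9.27 against 7.92, 7.88 and 7.77. The gene was thus alike on all arrays by the probe at chr8:24352085-24352144 and 3.05-fold apart in range by the one at chr8:24356505-24356564 (both minus strand), whose first 30 bases are printed to show that the probes do not overlap.
Golga7 brighter probe: ctctatactctcttagtatcggaatttctt
Golga7 dimmer probe: acccagtctcttgtttgctttacagaaatc

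Zfp42, which encodes the pluripotency marker REX1, showed the widest gap between probes. By its brighter probe it had 10.90, 11.42 and 11.41 in the Prss55-/- arrays against 10.88 to 11.07 in the wt arrays. By the other it had 7.43, 10.52 and 10.44 against 7.48, 7.27 and 7.64, a range of 8.52-fold. Both probes had the same 2 arrays high, and they overlap by 20 bases at the ends facing each other. The stretches printed hold these 20 bases in capitals (minus strand, probes at chr8:44380667-44380726 and chr8:44380707-44380778).
Zfp42 brighter probe, first 30 bases: TGTGCTATTGAAGGGGATGGggacttttgc
Zfp42 dimmer probe, last 30 bases: ccttactataTGTGCTATTGAAGGGGATGG

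Wrn, the gene of the RecQ helicase lost in Werner syndrome, was the only one of the 16 genes in which probes with a range of 1.5-fold or more and replicate 1 apart moved in opposite directions. A probe at chr8:34346449-34346508 (minus strand) gave 9.49, 10.13 and 10.12 in the Prss55-/- arrays against 9.58, 9.63 and 9.73 in the wt arrays. The brightest probe, 9 bases away at chr8:34346458-34346517, gave 10.71, 10.33 and 10.22 against 10.82, 10.94 and 10.84, a range of 1.40-fold over the Prss55-/- arrays. Prss55-/- replicates 2 and 3 were therefore above all other arrays by the first probe and below them by the second. The probes overlap by 51 bases and differ within the overlap at 1 base, A23G, where positions count from the 5′ end of the first probe, the first letter is its base and the last letter that of the brightest probe. The overlap around this base is printed with the base that differs in capitals.
Wrn probe with replicates 2 and 3 high, bases 8 to 37: atatagaacagatcaAtagttgcataggga
Wrn brightest probe, bases 17 to 46: atatagaacagatcaGtagttgcataggga

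A further Wrn probe, placed at chr8:34395672-34399248 across more than its own length, gave 6.62, 5.82 and 5.68 against 6.68, 6.57 and 6.86, again with replicates 2 and 3 low. Eri1, an exonuclease of histone messages and small RNAs, had probes that differed in direction as well. Its brightest probe had 9.75, 8.98 and 8.93 in the Prss55-/- arrays against 9.79, 9.67 and 9.71, with replicates 2 and 3 low. A dimmer probe had 7.06, 7.73 and 7.32 against 7.18, 7.18 and 7.05, with both of these arrays above the rest, replicate 2 by more. Probes differed in direction in other members too, among them Leprotl1, Vps37a and Rbpms. The brightest Leprotl1 probe had replicates 2 and 3 high, at 11.94 and 11.83 against 11.59 to 11.65 in the wt arrays. Another Leprotl1 probe had them low, at 8.72 and 8.74 against 9.81 to 9.84. No single direction can be given for Wrn, Eri1 or these 3 members as genes.

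**Figure D4:**
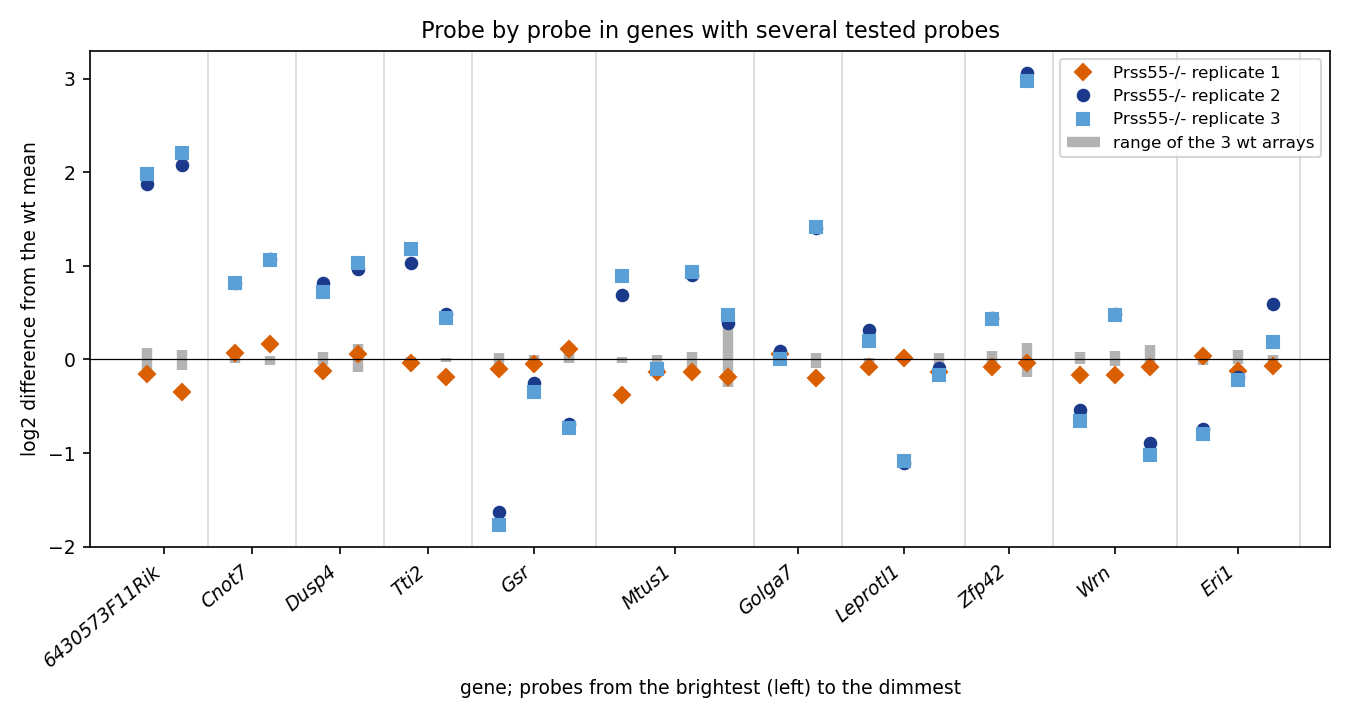
Difference in log2 signal of each Prss55-/- array from the wt mean for every tested probe of 11 members, with probes of a gene ordered from the brightest to the dimmest; grey bars span the 3 wt arrays. Probes of 6430573F11Rik, Cnot7, Dusp4 and Tti2 move together, and those of Golga7 and Zfp42 differ in size. Those of Wrn, Eri1 and Leprotl1 differ in direction.

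The comparison of genotypes asked which genes the loss of Prss55 changed in the testis. Prss55 itself, on another chromosome, was read at 15.08, 14.95 and 14.93 in the Prss55-/- arrays and at 15.87, 15.77 and 16.01 in the wt arrays, so its probe was lower in every Prss55-/- array, replicate 1 included, without being lost. By RT-PCR, Western blotting and immunofluorescence, the authors found Prss55 expression to be absent in Prss55-/- mice. Whether the array probe lies in the disrupted part was not tested. By limma with Benjamini-Hochberg adjustment over all tested probes, 3 of the 105 members passed an adjusted p of 0.05 by at least 1 probe, or 2.86%, against 1.56% of all tested genes.

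In 2 of these, D8Ertd82e and Ank1, both genotypes were above background. D8Ertd82e, renamed Prag1, a pseudokinase gene, had 5.86, 5.76 and 5.84 in the Prss55-/- arrays against 6.22, 6.30 and 6.39, a log2 difference of -0.49 ± 0.06 (SE, 95% interval -0.64 to -0.34, limma adjusted p = 0.030). Ank1, ankyrin 1, which ties membrane proteins to the spectrin skeleton, had 7.17, 7.12 and 6.78 against 7.84, 7.82 and 7.70, a difference of -0.76 ± 0.11 (SE, limma adjusted p = 0.045). The other tested probe of Ank1 went the other way, higher in Prss55-/- by 0.32 with a limma adjusted p of 0.28. By the mean over its tested probes, Ank1 differed by -0.22 (limma adjusted p = 0.22) and was not called.

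Sgcz, a sarcoglycan of the dystrophin complex, had 5.34, 5.56 and 5.44 against 5.002, 4.76 and 4.89 (limma adjusted p = 0.049). No wt array was well above background for it, so it entered the test only through the genotype in which it was high. Measured from the lowest signal well above background on each wt array, its Prss55-/- mean was at least 1.30-fold higher. The values of the 2 genotypes did not overlap for D8Ertd82e and Ank1. The 3 calls were close to the threshold: leaving out Prss55-/- replicate 2, Prss55-/- replicate 3 or wt replicate 1 left 0 members past it by limma, with 18, 20 and 17 at an unadjusted p below 0.05, and the methods' t-test left 0 with 25. Leaving out wt replicate 2 left 1 gene (Tpte), and leaving out wt replicate 3 left 1 (D8Ertd82e).

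The genes of the run did not pass the adjusted threshold with all 6 arrays. Their spread within Prss55-/- entered the test, and for Dusp26 a spread within wt that was as wide entered as well. For 1700016D18Rik the log2 difference was -2.53 ± 0.95 (SE, limma adjusted p = 0.23), for Nrg1 1.94 ± 0.72 (limma adjusted p = 0.23) and for Gsr -1.17 ± 0.44 (limma adjusted p = 0.23). At an unadjusted p below 0.05 and a 2-fold difference by any tested probe, 6 members passed, namely these 3 with Cldn23, Gm6213 and Triml1, or 5.71%, and 0.826% of all tested genes did. Triml1 passed by its dimmer probe only, and 5 members passed by their brightest probes. These 5 are genes whose ranges chose the stretch, and Nrg1 and Gm6213 entered the test only through the genotype in which they were high, so nothing is read from this share. The number by any probe was 15 without Prss55-/- replicate 1, 1 without Prss55-/- replicate 2 or wt replicate 2, 3 without wt replicate 3, and 0 without Prss55-/- replicate 3 or wt replicate 1. Without Prss55-/- replicate 1, 34 members passed the adjusted threshold by any tested probe, 27 by their brightest probe, and 3.96% of all tested genes did by any probe. Of the 34, 21 were higher and 14 lower in Prss55-/-, with Wrn in both counts. The stretch was selected on the gap between replicate 1 and the other 2 Prss55-/- arrays, so this count restates that gap and nothing is read from it.

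Lists of members by role were chosen with earlier results of these data known, and no list was tested. They showed how the 12 variable genes (11.4% of tested members, and 1.90% of all tested genes) and the 3 adjusted calls (2.86% and 1.56%) were spread. Of 7 tested genes listed under muscle, adhesion and cytoskeleton, 3 had a 2-fold range over the Prss55-/- arrays (Nrg1, Cldn23 and Mtus1). Nrg1 was in this list although it encodes an ErbB ligand. From the same list 2 passed the adjusted threshold. Ank1 was lower in Prss55-/- by 1 of its 2 tested probes, and Sgcz was higher with its wt signal at background. Of 11 tested genes listed under trafficking and glycosylation, 2 had a 2-fold range (Fut10 and Tmem66) and 0 passed. The list was loose, since it held Cnot7 and Tmem66, for which other roles are given above. The median range of the 11 genes over the Prss55-/- arrays was 0.45 on the log2 scale. It was 0.28 over all tested members and 0.13 over the other tested genes.

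Of 8 tested genes listed under kinases and phosphatases, Dusp26 had a 2-fold range. That list also held Ddhd2 and Tnks, which are neither. Of 6 tested genes of mitochondria and metabolism, Gsr had such a range. The 11 tested genes of DNA and chromatin, among them Wrn, Purg, Gins4 and Zfp42, had 0 by their brightest probes. So did the 4 tested genes of innate immunity and cell death and the 2 of blood clotting and liver. In these 5 lists no gene passed the adjusted threshold. Differences between genotypes had a median of 0.024 on the log2 scale over all tested members and of -0.0038 over the other tested genes.

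Among the 25 members that were not tested, 5 had a range of 2-fold or more over the Prss55-/- arrays with the highest array well above background, 3 with replicate 1 apart and 2 with replicate 3 apart. AY761184, which RefSeq names Defa39, an alpha-defensin gene kept by the rule because of the name on the array, read 4.34, 8.81 and 8.97 in the Prss55-/- arrays and 4.31, 4.28 and 4.24 in the wt arrays. Only Prss55-/- replicates 2 and 3 were well above background for it, and by this probe they were at least 16.2-fold above replicate 1. Fgf20, a fibroblast growth factor gene, was likewise well above background on these 2 arrays alone, with 5.88 and 5.55 against 3.01 in replicate 1. As replicate 1 was at background, the gap for Fgf20 was only bounded, at 1.69-fold or more, so a 2-fold gap was not established. Unc5d, a netrin receptor gene, had 3.89, 4.53 and 5.01 against 4.54, 5.01 and 4.83 in the wt arrays, with replicate 1 below all wt arrays. Only Prss55-/- replicate 3 was well above background for it. Counted from the lowest signal well above background on each array, the bound on its gap was 0.834-fold, so no gap was established. Against the split of AY761184 and Fgf20, Dkk4 and Htra4 had replicate 3 highest. Dkk4, a secreted Wnt inhibitor gene, had 3.72, 2.91 and 6.12 in the Prss55-/- arrays, and Htra4, a serine protease gene, had 4.18, 4.76 and 5.88. For both, replicate 3 was the only one of the 3 well above background.

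Signals of markers of other cells moved along the same split in part. Summed over 4 Leydig cell markers, log2 signals were 15.45, 14.89 and 15.05 in the Prss55-/- arrays and 15.56 to 15.73 in the wt arrays, and 1 of the 4 (Lhcgr) had a 2-fold range over the Prss55-/- arrays. Summed over 5 epididymal markers they were 10.29, 6.99 and 7.09 against 10.56 to 10.69. Only Rnase10 and Defb15 carried that shift, Defb15 lies in the same stretch of chromosome 8, and Lcn5, Lcn8 and Crisp1 were not well above background on any array. Rnase10 read 7.29, 4.64 and 5.44 in the Prss55-/- arrays, of which 2 were well above background, against 8.60 to 8.80 in wt. For Rnase10 replicate 1 thus lay below all wt arrays and not among them.

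Lists for spermatogonia, spermatocytes, round and elongating spermatids, Sertoli, peritubular and vascular cells and macrophages had summed signals within 0.14 on the log2 scale over the Prss55-/- arrays. The summed signal of 3 blood markers ranged over 0.32 in the Prss55-/- arrays and 1.33 in the wt arrays. The labelled tissue was matched by the germ cell lists, whose genes on the array were all well above background on all 6. The part of Leydig, epididymal or blood RNA in the differences on chromosome 8 was not tested.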

How the data were processed

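RNA from testes of 6 mice, 3 a genotype, was read on Agilent whole mouse genome arrays (1 colour). Per the file headers, the authors scanned them with Agilent Feature Extraction 10.7 (named in the submitters' processing notes) and deposited each spot's intensity as a background-corrected processed signal, beside a matrix of quantile-normalized log2 values. The scanner files place probes on mm9. Here processed signals were floored at 1, quantile-normalized and put on the log2 scale. A probe was tested where it was well above background on every array of at least 1 genotype: 28606 of 41174 probes, with spots flagged as outliers left out. limma 3.58.1 (R 4.3.3) compared genotypes over all of them, two-sided, after a check on simulated data. The brightest tested probe stood for a gene. The range over the 3 arrays of a genotype is the highest minus the lowest log2 value, and the array apart is the one beyond the larger gap. Well above background on 69.5% to 72.9% of spots and 0 saturated spots describe the arrays, and their number limits the precision. Of 130 members, 117 matched a RefSeq gene (GRCm38.p6 tables, used for names only). The members and lists were chosen with earlier results of these data known. Genes named are all members past the adjusted threshold, in a run or with a 2-fold range, those next to that threshold and Prss55. Genes named for their probes, from role lists or as untested members were chosen after their values were seen. Same-numbered arrays of the 2 genotypes did not deviate together (r = -0.05, -0.02 and -0.11), so numbers were not taken as pairs. Alternatives were the 75th percentile, normexp, the deposited matrix, other filters and thresholds, the mean over a gene's probes, blocks, the methods' t-test and leaving out each array.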

Additional observations from a re-analysis of the deposited data

Results flagged for a closer look

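Probes of the same stretch of chromosome 8 outside the genes described also differed among the Prss55-/- arrays. Of 16 tested genes left out by name, 4 (Star, Defb11, Defb15 and Defa20) had a range of 2-fold or more over the Prss55-/- arrays and 0 over the wt arrays, and in all 4 replicate 1 stood apart. Of 22 tested probes of the stretch without a gene name, 4 had such a range over the Prss55-/- arrays and 0 over the wt arrays, again with replicate 1 apart in all 4. Over all tested genes, 1.90% had such a range over the Prss55-/- arrays and 1.13% had it with replicate 1 apart. Replicate 1 was not always near wt: Defa20 read 6.00 in it against 3.94 to 4.94 in the wt arrays, and 1 of the unnamed probes read 4.45 against 5.62 to 6.22. These gaps rest on dim values. Defa20 in wt replicates 1 and 3, and the unnamed probe in replicate 1, lay below the lowest signal well above background on the array. No test was made of either count.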

How the results depend on the processing

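The number of members with a 2-fold range over the Prss55-/- arrays was 12, and 10 to 17 under other normalizations, filters and the mean over probes. It was 26 at 1.5-fold and 7 at 3-fold, and 0 to 12 when 1 array was left out, the 0 being without Prss55-/- replicate 1. Members in runs numbered 9, and 7 to 12 under these settings and other link distances, but 23 at 1.5-fold; with 2 arrays of a genotype no array stands apart, so runs were not computed without an array. Over the wt arrays the count was 2, and 1 by the 75th percentile, by normexp, with probes well above background on all 6 arrays and at 3-fold, 3 with all probes and at 1.5-fold, and 0 to 2 with 1 array left out. Members past the adjusted threshold numbered 3 by limma, 1 by the 75th percentile, 0 without a filter on dim probes (43 at an unadjusted p below 0.05), 1 with slide as a random block and 0 by the methods' t-test. With 1 array left out they numbered 0 to 34. With the replicate number as a block they numbered 0 (41 at an unadjusted p below 0.05), and the count past an unadjusted p and 2-fold was 7 in place of 6. That count was 3 by normexp, 2 without a filter, 0 by the methods' t-test and 0 to 15 with 1 array left out. Of 231 values for 18 named members, 193 kept their direction and their side of the threshold, 25 lost and 12 gained the call, and that of Rnf122 turned (-0.23 to 0.059 with 1 array left out, the latter without wt replicate 1). The cause of these changes was not tested. With 3 mice a genotype, and dim genes such as Nrg1 and Gm6213 near background, small differences were not detectable.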
